A study of Mus musculus with 6 samples.

Results

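The lipoprotein lipase axis was followed in RNA sequencing of glomeruli, the filtering units of the kidney. The labels describe all 6 mouse samples as diabetic kidney disease. It was taken as 8 genes, found by symbol among the 57132 gene rows of the count table: the lipases Lpl and Lipg, the lipase inhibitor Angptl4, the chaperone Lmf1, the capillary anchor Gpihbp1, the lipoprotein receptor Vldlr, the fatty acid transporter Cd36 and the lysophospholipid transporter Mfsd2a. All 8 passed the filter on low counts, and 19927 genes in all were tested. The axis was selected on measured values, namely the opposite direction of the differences of Lpl and Angptl4 between the genotypes in these same libraries. The comparison of the genotypes was therefore part of the choice, and the members' differences are given below as a description, with their errors and with no test.

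Both groups carried homozygous floxed Setdb2 alleles and both were labelled diabetic, so no healthy or wild-type reference enters any value. The controls lacked the Cre recombinase (Cre-/Setdb2fl/fl, 3 libraries, called Cre-negative here) and the others carried it (Cre+/Setdb2fl/fl, 3 libraries, called Cre-positive). The series addresses SETDB2, a putative histone methyltransferase, in podocytes, the epithelial cells that wrap the glomerular capillaries. The sources used here do not give the Cre driver, the way diabetes was brought about, or the age and sex of the animals. The labels name no batch and leave unsaid whether a library came from 1 mouse or a pool.

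Lipoprotein lipase hydrolyses the triglycerides of circulating lipoproteins at the surface of capillaries. It is folded in the endoplasmic reticulum with the help of LMF1, is carried across the endothelium and held there by GPIHBP1, and is inactivated by ANGPTL4, a secreted protein that fasting, glucocorticoids and low oxygen induce and that has been linked to proteinuria when podocytes make it. The fatty acids set free can enter cells through CD36, whole particles can bind VLDLR, and MFSD2A imports lysophosphatidylcholine that carries polyunsaturated fatty acids.

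Mfsd2a and Cd36 are shown by the 250 bases before their annotated starts, because both import lipids and only the first was among the genes with a large difference between the genotypes. The sequences are from RefSeq on GRCm38.p6, on the strand of the gene, and both genes lie on the minus strand. That of Mfsd2a is chr4:122961189-122961438 and that of Cd36 is chr5:17835897-17836146. Capitals mark matches to the motifs searched.
Mfsd2a: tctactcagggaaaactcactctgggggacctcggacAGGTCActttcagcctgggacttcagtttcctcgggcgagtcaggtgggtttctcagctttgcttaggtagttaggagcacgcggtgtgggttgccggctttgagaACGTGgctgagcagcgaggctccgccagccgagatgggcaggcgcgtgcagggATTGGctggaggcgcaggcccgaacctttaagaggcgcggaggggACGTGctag
Cd36: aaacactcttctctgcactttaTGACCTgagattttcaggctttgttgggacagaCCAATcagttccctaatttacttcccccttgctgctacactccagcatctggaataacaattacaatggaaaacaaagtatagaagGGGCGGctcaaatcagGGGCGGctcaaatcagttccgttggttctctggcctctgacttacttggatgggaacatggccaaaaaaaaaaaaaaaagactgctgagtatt

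Searched on both strands were the TATA box TATAAA, the CCAAT box, the GC box GGGCGG, the core ACGTG that hypoxia-inducible factors bind, the E-box CACGTG (which contains that core), the hexamer AGGTCA that many nuclear receptors bind, PPAR receptors among them, and the hexamer AGAACA of the glucocorticoid receptor. Counted back from the start, the Mfsd2a window had AGGTCA at -213, ACGTG at -107 and at -9, and CCAAT on the opposite strand at -54. The Cd36 window had AGGTCA on the opposite strand at -228, CCAAT at -195 and GGGCGG at -109 and at -93. Among 32851 windows of the same length, 14.0% held AGGTCA, 16.6% ACGTG, 33.8% CCAAT and 32.7% GGGCGG. The G and C content was 61.6% with 17 CpG in the Mfsd2a window and 43.2% with 3 CpG in that of Cd36, where the medians over all windows were 52.4% and 6. Upstream windows of 2 more members were searched: that of Lmf1 had 1 GGGCGG, and Vldlr, with 2 annotated starts, had 1 AGAACA before one and 1 CCAAT and 1 GGGCGG before the other. The windows of Lpl, Angptl4, Gpihbp1 and Lipg were not used here.

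The libraries held 53571438 to 58807042 counts. Setdb2 itself stood at 8.37 ± 1.62 CPM (read counts scaled to the library's total) in Cre-negative and 7.70 ± 0.371 CPM in Cre-positive libraries (SD, n = 3), and since the deleted part of the gene is not stated, gene-level counts do not check the genotype. Cre-positive replicate 2 stood apart, with 24 counts of Xist, the X-inactivation transcript, against 36474 to 47632 in the other 5 libraries. Of the Y chromosome's genes, Eif2s3y, Kdm5d, Uty and Ddx3y were each at 0 counts in all 6 libraries, this one included. Each member's difference is therefore also given without it. All 10 podocyte and all 9 glomerular endothelial markers were detected, but so were those of tubules: the 10 proximal tubule markers summed to 7958 to 9155 CPM in Cre-negative and 18655 to 18980 CPM in Cre-positive libraries, and the 10 podocyte markers to 542 to 626 and 744 to 852 CPM. Much of the proximal tubule rise was Kap, an androgen-regulated kidney transcript, at 138, 146 and 448 CPM in Cre-negative and 6717, 6818 and 5582 CPM in Cre-positive libraries. The other 9 markers summed to 7820 to 9009 and 12163 to 13073 CPM. The median difference of the list was 0.69 on the log2 scale, 6 of its 10 genes rose and none fell, and Slc22a6, an organic anion transporter, had a value of -0.71 that did not pass (adjusted p = 0.0553). In these bulk samples, fewer cells of a type and less RNA per cell cannot be told apart. White fat, a rich source of several members, left little trace: Lep had 0 counts in every library and Adipoq 6 counts in 1 library and 0 in the others. The 7 markers together summed to 1.07 to 1.29 CPM in Cre-negative and 0.149 to 0.983 CPM in Cre-positive libraries. Most of the Cre-negative sum was Cidec, the only 1 of the 7 with enough counts to be tested. It had 53, 63 and 37 counts in Cre-negative and 0, 9 and 4 in Cre-positive libraries (log2 fold change -3.46, edgeR adjusted p = 0.0348).

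Lpl, the lipase itself (ENSMUSG00000015568), had 79.8, 81.1 and 82.1 CPM in Cre-negative replicates 1, 2 and 3 and 362, 384 and 376 CPM in the Cre-positive ones. Every Cre-positive library lay far above every Cre-negative one, and within a genotype the libraries were almost equal. The means were 81.0 ± 1.17 and 374 ± 11.2 CPM (SD, n = 3), so the spread was 1.45% and 3.00% of the mean. The fold was 4.61 (95% confidence interval 4.14 to 5.14), a log2 fold change of 2.21 (SE 0.0688), and 2.19 without Cre-positive replicate 2. Lpl took rank 73 from the highest among the log2 fold changes of all genes tested.

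Lipg, the related endothelial lipase, which acts mainly on the phospholipids of high-density lipoprotein (ENSMUSG00000053846), was scarce. It had 2.19, 2.00 and 0.889 CPM in the Cre-negative and 2.04, 1.70 and 2.44 CPM in the Cre-positive libraries, from 50 to 133 counts each. The groups overlapped. The log2 fold change was 0.28 (SE 0.363), and its interval, 0.687-fold to 2.15-fold, spans both directions. Without Cre-positive replicate 2 it was 0.40. Without Cre-negative replicate 3, the library with the lowest value, it was -0.02.

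Angptl4, the inhibitor (ENSMUSG00000002289), had 185, 245 and 167 CPM in the Cre-negative libraries and 15.6, 15.9 and 17.6 CPM in the Cre-positive ones. The lowest Cre-negative library was many times above the highest Cre-positive one. The means were 199 ± 40.8 and 16.4 ± 1.06 CPM (SD, n = 3), with a spread of 20.5% of the mean in Cre-negative and 6.46% in Cre-positive libraries. Its level was 12.2-fold lower in Cre-positive, or -3.61 on the log2 scale (SE 0.150, interval -3.95 to -3.26 at 95% confidence), and -3.59 without Cre-positive replicate 2. Angptl4 took rank 53 from the lowest among all genes tested.

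Set against each other per kilobase of the union of exons, Angptl4 exceeded Lpl 6.87, 8.94 and 6.03 times in the Cre-negative libraries. In the Cre-positive libraries the ratio was 0.128, 0.123 and 0.138, so that Lpl exceeded Angptl4 7.83, 8.14 and 7.23 times. The size of these ratios depends on the length used: per kilobase of the longest transcript, Angptl4 exceeded Lpl 2.89, 3.76 and 2.53 times in the Cre-negative libraries, and Lpl exceeded Angptl4 18.6, 19.4 and 17.2 times in the Cre-positive ones. The order of the inhibitor and its target was the opposite in all libraries of the other genotype with either length. That the pair moved apart is what the axis was chosen for.

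**Figure D1:**
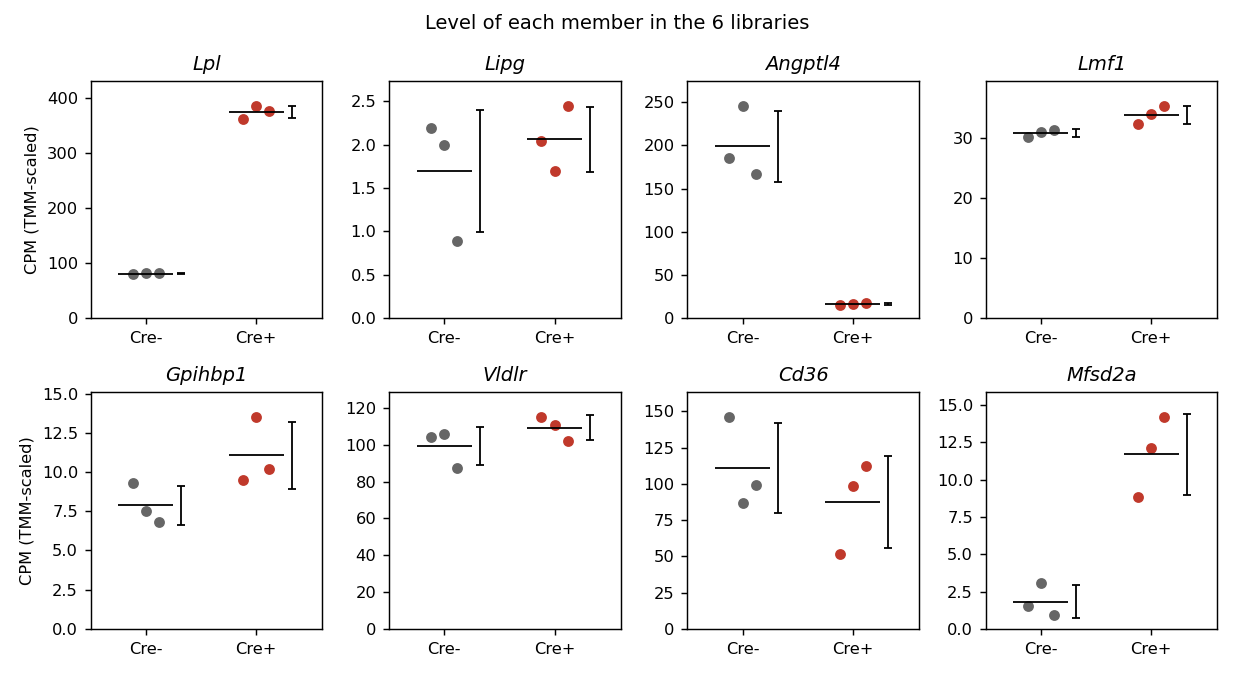
CPM of each member (y axis, scaled by TMM factors, from 0) in the 3 Cre-negative (grey) and 3 Cre-positive (red) libraries, with the mean as a line and the SD as a bar. Lpl and Mfsd2a are higher and Angptl4 lower in Cre-positive with no overlap, while Lipg, Vldlr and Cd36 overlap between the genotypes.

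The genes that fold and hold the lipase showed smaller differences than the lipase. Lmf1, the chaperone (ENSMUSG00000002279), had 30.2, 31.0 and 31.4 CPM in Cre-negative and 32.3, 34.0 and 35.3 CPM in Cre-positive libraries. All Cre-positive values lay above the Cre-negative ones, but by little: the log2 fold change was 0.13 (SE 0.0765) with an interval of 0.973-fold to 1.24-fold, and again 0.13 without Cre-positive replicate 2. Lpl per Lmf1, both per kilobase of the union of exons, was 3.43, 3.39 and 3.39 in Cre-negative and 14.5, 14.6 and 13.8 in Cre-positive libraries, and by the longest transcript 2.48, 2.45 and 2.45 against 10.5, 10.6 and 9.99.

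Gpihbp1, the anchor on capillary endothelium (ENSMUSG00000022579), had 9.27, 7.50 and 6.84 CPM in Cre-negative and 9.47, 13.5 and 10.2 CPM in Cre-positive libraries. The lowest Cre-positive library was only just above the highest Cre-negative one. The log2 difference was 0.49 (SE 0.186, interval 0.07 to 0.91 at 95% confidence), and 0.32 without Cre-positive replicate 2, the library with the highest value. Of the endothelial markers, 7 of 9 passed the edgeR threshold (adjusted p under 0.05), all higher in Cre-positive, where 3.73% of all genes were. Their median log2 fold change was 0.61. Relative to the median of those markers in the same library, the Gpihbp1 groups overlapped and their means differed by -0.07 on the log2 scale. This was not particular to endothelium. The groups also overlapped relative to podocyte (0.11), mesangial (0.03), proximal tubule (-0.15) and thick ascending limb markers (0.35), but not relative to macrophage markers (1.24).

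Vldlr, a receptor that binds triglyceride-rich particles (ENSMUSG00000024924), differed little between the genotypes. It had 104, 106 and 87.2 CPM in Cre-negative and 115, 111 and 102 CPM in Cre-positive libraries, which overlapped. The log2 fold change was 0.15 (SE 0.0899) with an interval of 0.962-fold to 1.28-fold, and 0.14 without Cre-positive replicate 2.

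Cd36, a scavenger receptor that takes up long-chain fatty acids (ENSMUSG00000002944), varied more among libraries than between genotypes. It had 146, 87.1 and 99.3 CPM in Cre-negative and 51.8, 98.6 and 112 CPM in Cre-positive libraries. Cre-negative replicate 1 was the highest and Cre-positive replicate 1 the lowest, and the other 4 lay close together. The log2 fold change was -0.34 (SE 0.345), and its interval of 0.434-fold to 1.44-fold is wide. Without Cre-positive replicate 1 it was -0.07, without Cre-negative replicate 1 it was -0.09, and without Cre-positive replicate 2 it was -0.43. Macrophages, which express Cd36, were most abundant by their 9 markers in Cre-negative replicate 1 as well, with a sum of 317 CPM against 171 to 279 CPM in the other Cre-negative and 175 to 185 CPM in the Cre-positive libraries. The part of these cells in the Cd36 values was not tested.

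Mfsd2a, the sodium-dependent importer of lysophosphatidylcholine (ENSMUSG00000028655), had 1.51, 3.06 and 0.924 CPM in the Cre-negative and 8.83, 12.1 and 14.2 CPM in the Cre-positive libraries, or 52 to 171 counts against 471 to 763. The groups were far apart, but the Cre-negative libraries differed among themselves by a spread of 60.2% of their mean, with replicate 2 the highest. The fold was 6.40 (95% confidence interval 3.22 to 12.7), a log2 fold change of 2.68 (SE 0.425), and 2.65 without Cre-positive replicate 2. The log2 fold change was 3.26 without Cre-negative replicate 2 and 2.36 without Cre-negative replicate 3. Mfsd2a took rank 42 from the highest.

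Of the 8 members, 2 were past an adjusted p of 0.05 on the higher side and 1 on the lower side, where 3.73% and 3.82% of all genes tested were, or 7.55% together. For 5 of 8 the genotypes did not overlap, against 29.7% of all genes. As the comparison served to choose the axis, nothing is read from these counts. Without Cre-negative replicate 1 the number past the threshold was 2, Mfsd2a being the one lost. The median log2 fold change was 0.22 over the members and -0.00 over all genes tested.

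**Figure D2:**
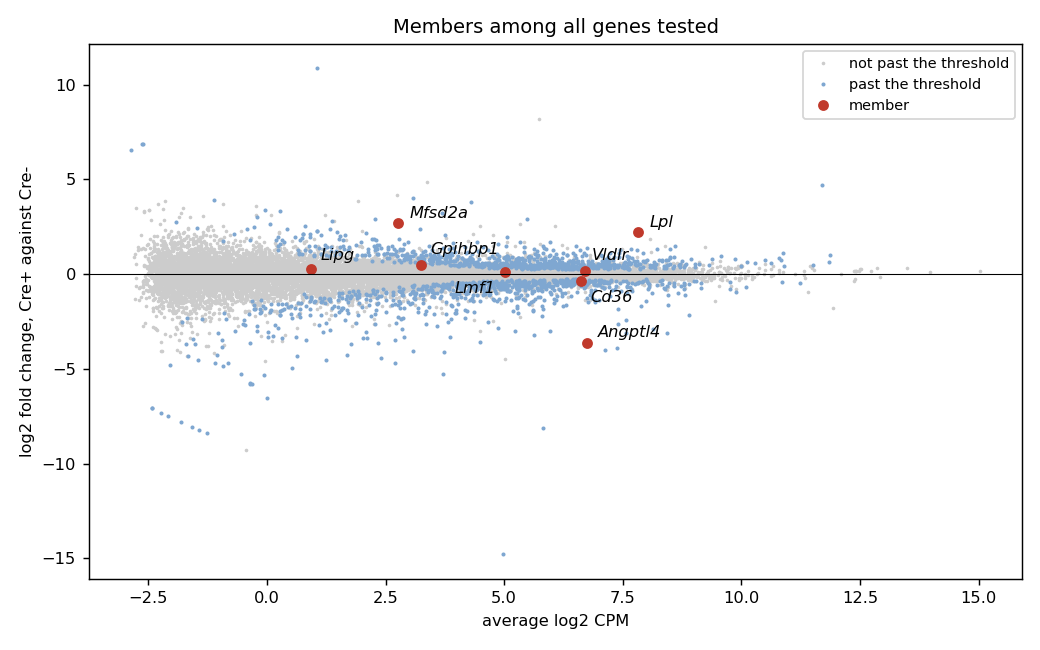
Log2 fold change of Cre-positive against Cre-negative (y axis) by average log2 CPM (x axis) for the 19927 genes tested, with the 8 members in red and genes past an adjusted p of 0.05 in blue. Lpl at 2.21 and Angptl4 at -3.61 stand outside the band of genes of similar abundance, and Lmf1, Vldlr and Cd36 lie within it.

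Levels of different genes were compared per kilobase of exon. In Cre-negative libraries Angptl4 was the most abundant member at 56.3 ± 11.5 CPM per kilobase (SD, n = 3), followed by Cd36 at 30.8 ± 8.59, Vldlr at 9.82 ± 1.01 and Lpl at 7.73 ± 0.112. Gpihbp1 at 3.08 ± 0.492, Lmf1 at 2.27 ± 0.0480, Mfsd2a at 0.815 ± 0.490 and Lipg at 0.359 ± 0.149 CPM per kilobase came after. Mfsd2a and Lipg were the only neighbours in this order whose libraries overlapped. In Cre-positive libraries Lpl led at 35.7 ± 1.07 CPM per kilobase, before Cd36 at 24.4 ± 8.80 and Vldlr at 10.9 ± 0.662. Mfsd2a at 5.22 ± 1.21, Angptl4 at 4.62 ± 0.298 and Gpihbp1 at 4.33 ± 0.850 CPM per kilobase overlapped with one another, and Lmf1 at 2.49 ± 0.111 and Lipg at 0.438 ± 0.0784 came last. The order depended in part on the length taken. With the longest transcript in place of all exons, Lpl stood at 19.7 ± 0.285 in Cre-negative libraries, above Vldlr at 12.4 ± 1.27, and at 90.8 ± 2.73 CPM per kilobase in Cre-positive ones. Angptl4 stayed first in Cre-negative libraries and was next to last in Cre-positive ones.

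Since markers of several cell types differed between the genotypes, each member was also expressed relative to the median of 6 marker lists in the same library. The lists themselves differed by 0.37 (podocyte), 0.56 (glomerular endothelium), 0.46 (mesangium), 0.64 (proximal tubule), 0.13 (thick ascending limb) and -0.75 (macrophage) in mean log2 level, Cre-positive minus Cre-negative. The Lpl difference, 2.20 in mean log2 CPM, was 1.84 relative to podocyte, 1.65 relative to endothelial and 1.57 relative to proximal tubule markers, and 2.96 relative to macrophage markers. That of Angptl4, -3.59, was -3.95, -4.14, -4.22 and -2.83 in the same order. That of Mfsd2a, 2.80, was 2.43, 2.24, 2.16 and 3.55. For these 3 genes the libraries of the genotypes stayed apart relative to each of the 6 lists. Cd36 was lower in every Cre-positive library relative to podocyte, endothelial, mesangial and proximal tubule markers, with mean differences of -0.75, -0.94, -0.83 and -1.02, but not relative to those of the thick ascending limb or of macrophages, where the groups overlapped. Lmf1 and Vldlr took negative values relative to the podocyte (-0.24 and -0.22), endothelial (-0.43 and -0.41), mesangial (-0.32 and -0.30) and proximal tubule lists (-0.50 and -0.49), and positive ones relative to the macrophage list (0.89 and 0.90), so their small differences have no fixed sign.

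**Figure D3:**
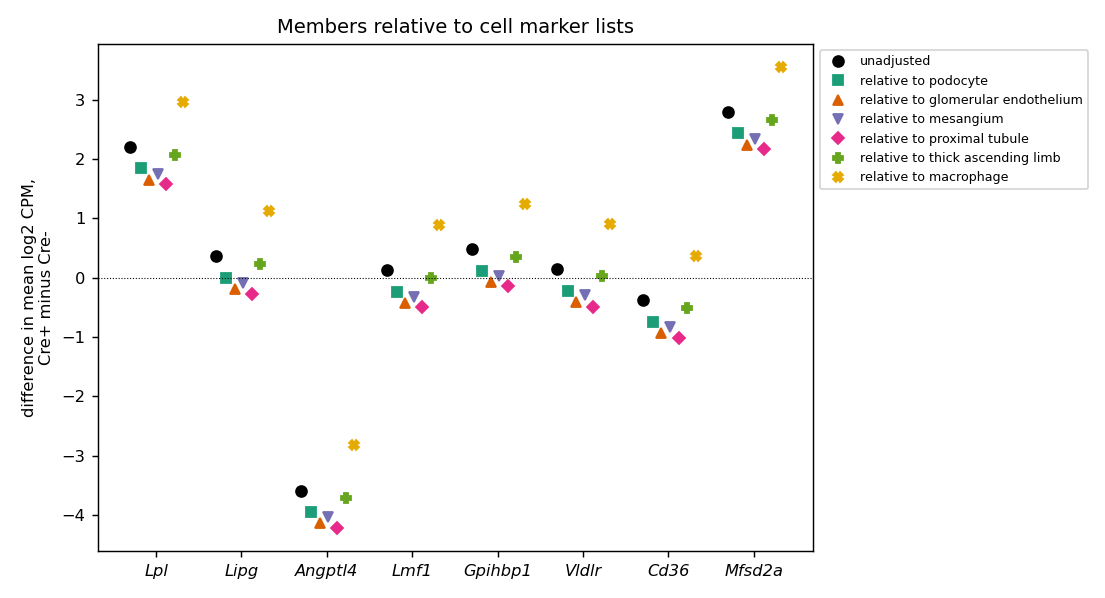
Difference in mean log2 CPM between Cre-positive and Cre-negative libraries (y axis) for each member, unadjusted (black circle) and relative to the median of each of 6 cell marker lists in the same library (coloured symbols). Lpl and Mfsd2a stay above 0 and Angptl4 below 0 against every list, while the other members change sign with the list.

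The libraries also held other genes that act on the lipase. The list genes given from here on were not set relative to the cell marker lists. Those marker lists themselves differed by -0.75 (macrophage) to 0.64 (proximal tubule) in mean log2 level, and the part of such shifts in the list genes was not tested. Of 7 cofactors and inhibitors 6 were tested, 2 fell, none rose and 4 did not pass, with a median log2 fold change of -1.44. Over all genes tested, 3.82% fell and 3.73% rose. Angptl8, a secreted inhibitor that acts on the lipase of muscle and heart, went from 4.03, 4.31 and 4.85 to 1.67, 2.05 and 2.27 CPM (log2 fold change -1.14, SE 0.222, adjusted p = 0.0187). Apoc3, an apolipoprotein that slows the clearance of triglyceride-rich particles, went from 25.7, 39.4 and 24.7 to 3.21, 8.60 and 6.34 CPM (log2 fold change -2.31, SE 0.378, adjusted p = 0.0187). Both calls were sensitive to single libraries: that of Angptl8 ended without any 1 of the Cre-positive libraries (adjusted p up to 0.0730) and that of Apoc3 without Cre-negative replicate 1 or Cre-positive replicate 3 (up to 0.0716). The number called in this list was 1 without Cre-negative replicate 1 or Cre-positive replicate 2 and 0 without Cre-positive replicate 3. None of 9 genes of lipase maturation and cleavage passed. The protease Pcsk5 had the smallest p, at 0.32 on the log2 scale (SE 0.0890, adjusted p = 0.0623, and 0.0274 in DESeq2).

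Among 12 genes of heparan sulfate, the sugar chains that bind lipases at cell surfaces, 1 rose, 1 fell and 10 did not pass (median 0.04). For this list and the next, the shares over all genes tested were 3.73% higher and 3.82% lower. Hspg2, the basement membrane proteoglycan perlecan, changed by 0.63 (SE 0.0898, adjusted p = 0.00529). Sdc1, the syndecan that clears remnant particles in liver, changed by -0.70 (SE 0.149, adjusted p = 0.0253), a call that ended without any 1 of the Cre-positive libraries (up to 0.106). Of 9 other lipoprotein receptors and their partners, 2 rose, none fell and 7 did not pass (median 0.01). Lrp2, or megalin, changed by 0.83 (SE 0.0909, adjusted p = 0.00179), and it is also one of the proximal tubule markers. Lrpap1, a chaperone of this receptor family, changed by 0.40 (SE 0.0770, adjusted p = 0.0186), which did not hold without any 1 of the Cre-positive libraries (up to 0.0861).

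Of 18 fatty acid uptake genes other than Cd36, 17 were tested, 1 rose, 1 fell and 15 did not pass (median 0.14). Here too, 3.73% of all genes tested rose and 3.82% fell. The pair that passed were acyl-CoA synthetases, which trap fatty acids in the cell. Acsl1 went from 355, 490 and 488 to 705, 613 and 641 CPM (log2 fold change 0.56, SE 0.130, adjusted p = 0.0368). Acsl5 went from 167, 147 and 161 to 115, 119 and 114 CPM (log2 fold change -0.45, SE 0.0707, adjusted p = 0.00849). Acsl1 lost its call without any 1 of the Cre-positive libraries (adjusted p up to 0.129) and Acsl5 without Cre-positive replicate 3 (0.0575). In the list nearest to Mfsd2a, of lysophospholipid transport and polyunsaturated lipids, 1 of 12 rose, 1 fell and 10 did not pass (median 0.17), beside the same shares over all genes. Fads2, the desaturase that starts the synthesis of long polyunsaturated fatty acids, went from 96.9, 104 and 126 to 228, 254 and 220 CPM (log2 fold change 1.10, SE 0.108, adjusted p = 0.00100). Lpcat4, a lysophospholipid acyltransferase, changed by -0.91 (SE 0.169, adjusted p = 0.0157), and this ended without any 1 of the Cre-positive libraries (up to 0.0758).

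Angptl4 is a known target of PPAR nuclear receptors, of the glucocorticoid receptor and of hypoxia-inducible factors, and other targets of each were counted. Of 15 other PPAR targets 10 fell, none rose and 5 did not pass, where 3.82% of all genes fell. The median log2 fold change was -0.90 against -0.00 over all genes. This list, like the others, was chosen with earlier results of these data known. Its count and median are therefore a description and no independent support. PPAR targets placed among the members or in other lists were not counted here, so the absence of a rise holds for this list only. Examples among those that were higher were Lpl (2.21), Mfsd2a (2.68), Fads2 (1.10) and Acsl1 (0.56). Cd36 (-0.34), Vldlr (0.15), Fabp1 (-0.92), Fabp3 (0.25), Fabp4 (0.22) and Slc27a1 (-0.17) did not pass. These examples are not a full account. Plin2, which coats lipid droplets, went from 166, 157 and 161 to 65.3, 67.9 and 72.4 CPM (log2 fold change -1.24, SE 0.0681, adjusted p = 4.36e-05). Pdk4, the kinase that shuts off pyruvate dehydrogenase, went from 280, 305 and 294 to 34.5, 56.1 and 50.1 CPM (log2 fold change -2.64, SE 0.171, adjusted p = 0.000288). The acyl-CoA thioesterases Acot2 and Acot1 changed by -1.22 (SE 0.114, adjusted p = 0.000781) and -0.90 (SE 0.125, adjusted p = 0.00487); they are near-identical copies, so reads may be split between them. The number that fell was 6 without Cre-positive replicate 1, 5 without replicate 2 and 7 without replicate 3, and 9 to 10 without any 1 of the Cre-negative libraries.

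The targets of the other regulators of Angptl4 were counted in the same way, where 3.82% of all genes fell and 3.73% rose. The lists were not tested against each other. Of 10 glucocorticoid receptor targets 3 fell, none rose and 7 did not pass (median -0.17): Mt2 and Mt1, metallothioneins that metals also induce, changed by -2.02 (SE 0.115, adjusted p = 5.62e-05) and -0.82 (SE 0.0777, adjusted p = 0.000868), and Fkbp5, a co-chaperone of the receptor, by -1.21 (SE 0.163, adjusted p = 0.00532). The 7 glucocorticoid receptor targets that did not pass went both ways. They were Per1 (0.38), Tsc22d3 (0.20), Sgk1 (0.17), Errfi1 (0.10), Klf9 (-0.05), Dusp1 (-0.29) and Zbtb16 (-1.58). Of 14 hypoxia targets 3 rose, 1 fell and 10 did not pass (median 0.10). Egln3, an oxygen-sensing hydroxylase, changed by -1.04 (SE 0.123, adjusted p = 0.00230). Vegfa, the vascular growth factor that podocytes secrete, the glucose transporter Slc2a1 and the stress gene Ndrg1 changed by 0.51, 0.38 and 0.49 (adjusted p = 0.0146, 0.0333 and 0.0485). Their calls ended without any 1 of the Cre-positive libraries for Vegfa (adjusted p up to 0.0707), without either of 2 libraries of each genotype for Slc2a1 (up to 0.136; Cre-negative replicates 1 and 3 and Cre-positive replicates 2 and 3) and without any library but Cre-negative replicate 3 for Ndrg1 (up to 0.160). This list had 2 calls without Cre-positive replicate 1 and 1 without replicate 2 or 3.

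Among the receptors and factors themselves the calls were on the higher side. Of 17 transcription factors of the axis 16 were tested, 3 rose, none fell and 13 did not pass (median 0.23). Over all genes tested, 3.73% rose and 3.82% fell. Srebf1, the driver of fatty acid synthesis, went from 50.1, 49.2 and 47.8 to 118, 164 and 121 CPM (log2 fold change 1.46, SE 0.125, adjusted p = 0.000630). Ppard, a PPAR receptor of broad expression, went from 24.7, 24.2 and 30.3 to 65.7, 60.4 and 49.8 CPM (log2 fold change 1.15, SE 0.127, adjusted p = 0.00182), the opposite direction to the PPAR targets that fell. Epas1, a hypoxia-inducible factor abundant in endothelium, changed by 0.49 (SE 0.0845, adjusted p = 0.0118), which ended without Cre-positive replicate 2 or 3 (up to 0.0669). The number called was 2 without either of these and 5 without Cre-negative replicate 3.

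**Figure D4:**
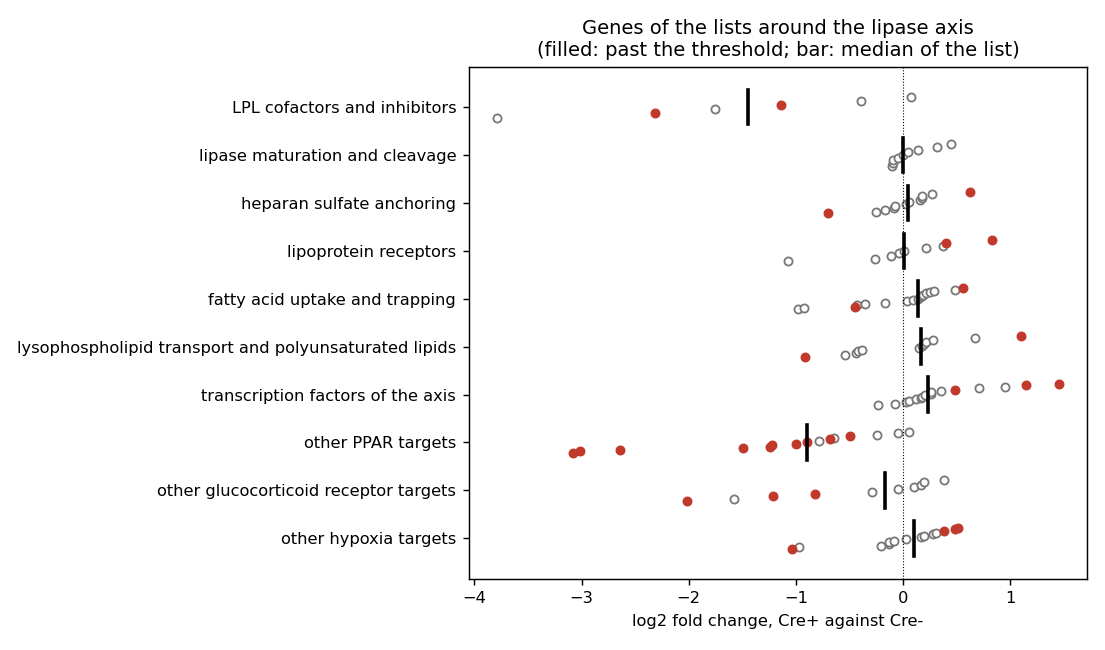
Log2 fold change of Cre-positive against Cre-negative (x axis) for each gene tested in the 10 lists around the axis (y axis), filled where past an adjusted p of 0.05, with the median of each list as a bar. The other PPAR targets spread to the left with 10 of 15 filled, and the transcription factors have their 3 filled genes on the right.

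Over the 6 libraries, the genes whose log2 CPM followed Lpl most closely among 12749 compared were Clcn6 (Pearson r = 0.9991), Acss1 (0.9971), Gtf2i (0.9964), Gcat (0.9963) and Sufu (0.9961). Their log2 fold changes were 0.79, 0.74, 0.20, 1.01 and 0.47, all smaller than that of Lpl. Those closest to Angptl4 were Mdm2 (0.9987), Aldh1a7 (0.9982), Pank1 (0.9980), Cdkn1a (0.9979) and Igsf9b (0.9975), with log2 fold changes of -1.17, -3.32, -0.73, -4.00 and -1.35. The libraries form 2 genotypes, so a high r mainly reports 2 levels with little spread inside each, and it carries no test.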

How the data were processed

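The authors deposited raw counts, as whole numbers for each Ensembl gene, in 1 table of 6 libraries. Per the labels' protocols, polyadenylated RNA was sequenced as read pairs from dUTP libraries. Per the submitters' processing notes, the tools were fastp, HISAT2, StringTie and edgeR and the build was GRCm39, with no versions or roles. For the strand setting, the annotation release and multiply matching reads the entry is: not given in the sources used here.

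Symbols were assigned to 51880 of 57132 rows. Counts were fitted as deposited with edgeR 4.0.16 in R 4.3.3: filterByExpr, TMM factors (0.979 to 1.03) and the quasi-likelihood test (robust=TRUE), Benjamini-Hochberg adjusted over 19927 genes, threshold 0.05. SE was taken from the fold change and F, and CPM are TMM-scaled. No pair of libraries agreed within sampling noise (chi-square per degree of freedom at least 20.6). Nothing in the labels ties replicates to separate mice. A p-value here thus reflects only how these libraries vary, in part perhaps technically. The fit was tested on simulated data.

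The members and lists were chosen with earlier results of these data known. Named were the members, in each list the 4 or fewer called genes of smallest p (where none was called, the gene of smallest p), and the 5 genes of highest r with Lpl and with Angptl4 (average log2 CPM at least 1, no provisional name). Exon lengths were those of GENCODE M21, which is on GRCm38 and not on GRCm39, and no gene there overlapped a member. Alternatives were DESeq2 1.42.0, limma 3.58.1 (voom), other factors and filters, a replicate block, and each library left out. The longest transcript, the marker lists as reference and the proximal tubule sum without Kap were added after seeing the data.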

Additional observations from a re-analysis of the deposited data

How the results depend on the processing

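Lpl, Angptl4 and Mfsd2a kept their direction in all 14 alternatives, at 2.19 to 2.23, -3.72 to -3.43 and 2.36 to 3.26 on the log2 scale. Lmf1 (0.10 to 0.17), Gpihbp1 (0.32 to 0.63), Vldlr (0.07 to 0.20) and Cd36 (-0.56 to -0.07) kept theirs too, and Lipg crossed 0 (-0.02 to 0.51). For Lpl, Angptl4 and Mfsd2a the genotypes did not overlap, and all alternatives reused these libraries, so their kept direction is no separate evidence. The number of genes called depended on the test and on single libraries, and the cause was not tested. DESeq2 called 2697 genes (1267 higher, 1430 lower) in place of 1505 (743 and 762), and 46 of the genes in the 10 lists (19 higher) in place of 30 (11). With single libraries left out, the calls ran from 462 to 2039 (204 to 987 higher, 258 to 1052 lower), those in the lists from 16 to 33 (5 to 12 higher, 11 to 21 lower), and those among the members from 2 to 3 (1 to 2 higher, 1 lower in each case). Without 1 library fewer samples enter the test. Of the 25 list genes named, 13 stayed on their side of the threshold in all 14 alternatives, and none changed direction. With Acsl1 and Ndrg1 the call also ended with the replicate block, and with Ndrg1 with robust=FALSE. Whether the replicate numbers pair the libraries was not settled. Deviations from the group means correlated only at 0.0547, 0.0551 and 0.0173 between same-numbered libraries, yet each was the highest for its library. A replicate block called 1541 genes (737 higher, 804 lower), 30 in the lists and 3 members. Relative to the marker lists, 34 of 48 member values moved by more than the spread between replicates. No member past the threshold changed sign, but none could. The largest difference of a list was -0.75 (macrophage), against 2.20 for Lpl, -3.59 for Angptl4 and 2.80 for Mfsd2a.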
